A study of Arabidopsis thaliana with 4 samples.

Results

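The genes described here act on chromatin, the complex of DNA and histones in the nucleus. They were chosen by their symbols alone, under a rule set with earlier results of these data known. Each is a single annotated nuclear gene. Its symbol opens with CHR, SDG, SUVH, SUVR, ATXR, JMJ, HDA, HAC, HAM, MBD or PRMT and goes on with a digit. The brightest probe set stands for a gene that has several. The rule found 10 genes of 13212 nuclear genes with a named probe set. The 8 remodellers are CHR17, CHR18, CHR23, CHR24, chr31, CHR34, CHR40 and CHR42, and the 2 erasers are HDA7 and HDA15. The symbol chr31 is in lower case in the annotation and was counted with the CHR genes. No gene with a writer prefix (SDG, SUVH, SUVR, ATXR, HAC, HAM, PRMT), with JMJ or with the reader prefix MBD met the rule. Writers and readers are therefore not analysed here. The rule reads only probe sets that name 1 gene, 13513 of the 22746 tested, so further chromatin genes may be on the array.

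Remodellers here are the genes with the prefix CHR, which encode ATPases of the SNF2 family. Members of this family can slide, eject or exchange nucleosomes and so change which DNA is open to transcription factors and polymerases. Whether each of these genes does so was not tested. Erasers take chemical marks off histones. The HDA enzymes remove acetyl groups from histone lysines, which in plants usually goes with lower transcription of the gene concerned. Writers, which add such marks, and readers, which bind them, complete the scheme.

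The samples were shoots of Arabidopsis thaliana in the Col-0 background, 2 arrays from plants overexpressing the basic helix-loop-helix factor bHLH122 and 2 from untransformed wild type, all kept for 96 h of stratification, 1 week on medium and 2 weeks in soil. The overexpressor arrays are described both as independent lines and, in their titles, as line 18, and they were treated as 1 group. The sources used here do not name the promoter that drives the transgene. No probe set is named bHLH122, so the labels were not checked on that transcript. Nothing states that arrays of a group came from separate cultures, so a p-value measures only the spread between these arrays, which may be technical.

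Signal is given on the log2 scale of the deposited intensities. It compares a gene between arrays. Where ranks or values of different genes are set side by side below, they are only rough, since probes differ in how strongly they bind. Here and below, a gene counts as measured only where a probe set names it alone. The annotation does so for 13513 of the 22746 probe sets tested, so others may be on the array unnamed. Of the shoot markers measured, RCA, PRK, SBPASE and LHCB4.1, each was brighter than at least 99.3% of probe sets. Of these 4, 3 rose in the overexpressors: PRK by 0.69, SBPASE by 0.44 and RCA by 0.34 in log2 units (limma adjusted p = 0.00853, 0.0200 and 0.0491). Over all probe sets 12.2% were called higher and 24% in either direction. PRK passed with any 1 array left out (0.0129 to 0.0424), while SBPASE (0.0696 to 0.0790) and RCA (0.111 to 0.208) then did not, and the part of these markers in the changes below was not tested. The root markers PYK10 and EXPA7 were brighter than 83.2% and 26.7%, the meristem gene CLV3 than 9.54%, and no flower marker was measured. Control RNA with a poly-A tail was lower in the overexpressors on 24 of 24 probe sets (median difference -0.59 in log2 signal). On 22 of these the groups did not overlap. The hybridization controls, which are added after labelling, were lower in the overexpressors on 18 of 18 by a median of -0.25. On 13 of them the groups did not overlap. Both control differences run with the groups, and their part in the changes below was not tested. The difference between 3′ and 5′ probe sets of actin, GAPDH and ubiquitin, a measure of RNA integrity, moved by -0.14 to 0.06 in log2 signal between the groups, and the groups were apart for 1 of 6 such pairs.

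The comparison asks which of these genes differ when bHLH122 is overexpressed. The remodellers CHR17, CHR23 and CHR24 rose, no member fell, and the other 7 did not pass (limma, Benjamini-Hochberg adjustment over 22746 probe sets, threshold 0.05). Of all probe sets 12.2% were called higher and 11.8% lower, 24% in either direction, so 3 called of 10 is near the share called in either direction and above the share called higher. By unadjusted p under 0.05 in limma the counts were also 3 higher and 0 lower, against 36.2% of all probe sets in either direction. The median log2 fold change of the 10 genes was 0.11, against -0.02 over all probe sets and -0.03 over 13367 nuclear ones. In whole shoots, a change in the share of a cell type and a change in RNA per cell cannot be told apart.

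**Figure D1:**
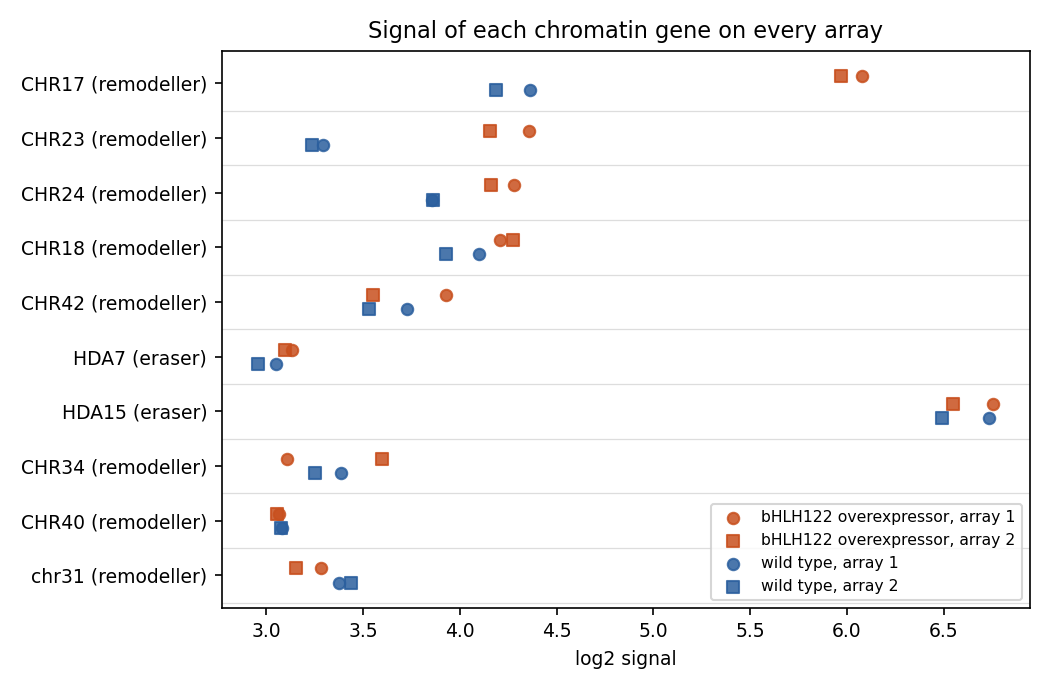
Log2 signal of the 10 chromatin genes on each of the 4 arrays (orange, bHLH122 overexpressor; blue, wild type; circles, array 1; squares, array 2), ordered by change. For CHR17 the overexpressor arrays lie at 6.08 and 5.97, well above the wild-type arrays at 4.36 and 4.19, while most genes in the lower rows have mixed or close points.

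CHR17 encodes a remodeller of the ISWI type, which spaces nucleosomes evenly along gene bodies and, together with its close relative CHR11, keeps plants from flowering early. In the overexpressors its log2 signal read 6.08 and 5.97, and in wild type 4.36 and 4.19. Both overexpressor arrays were above both wild-type arrays, with a gap of 1.61 between the nearest arrays of different groups and at most 0.17 between arrays of a group. The log2 fold change was 1.75 (SE 0.11, limma adjusted p = 0.000517), a 3.37-fold rise with a 95% interval of 2.80 to 4.05. At least 2-fold rises with a call were found for 1.6% of all probe sets. CHR11 is not analysed here, and whether its transcript adds to the signal of the CHR17 probe set was not tested.

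CHR23, also named MINU2, belongs to the BRAHMA group of SWI/SNF remodellers and acts with CHR12 in keeping the stem cells of shoot and root. Its log2 signal was 4.36 and 4.15 in the overexpressors and 3.30 and 3.24 in wild type. The groups did not overlap, and the nearest arrays of different groups were 0.86 apart. Its rise measured 0.99 in log2 units (SE 0.11, limma adjusted p = 0.00282), or 1.99-fold with a 95% interval of 1.65 to 2.39. The wild-type values lie below the lower quartile of their arrays (3.53 and 3.50), and how far they lie above background is unknown.

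CHR24 is a SNF2-family gene for which the gene table lists the synonyms ERCC6 and RAD26, names of a factor for transcription-coupled DNA repair in other species. Its log2 signal was 4.28 and 4.16 in the overexpressors and 3.85 and 3.86 in wild type. The groups were apart by 0.30, and the wild-type arrays nearly coincided. The log2 fold change was 0.36 (SE 0.10, limma adjusted p = 0.0430), or 1.29-fold with a 95% interval of 1.09 to 1.52. This call did not pass when any 1 array was left out (limma adjusted p from 0.0839 to 0.197) or with the length trend removed (0.477).

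CHR18 is a relative of SMARCAL1, which in animals anneals DNA strands at stalled replication forks. Its log2 signal was 4.21 and 4.27 in the overexpressors and 4.097 and 3.93 in wild type. The groups were apart by 0.11, less than the 0.17 between the wild-type arrays. The log2 fold change of 0.23 (SE 0.11, limma adjusted p = 0.179) did not pass, and its 95% interval, 0.98-fold to 1.40-fold, leaves out a rise as large as that of CHR23 or CHR17.

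The other remodellers belong to the group of DRD1, a remodeller of RNA-directed DNA methylation, the pathway in which small RNAs guide methyl groups to transposons. chr31 (CLASSY3), CHR40 (CLASSY4) and CHR42 (CLASSY2) encode CLASSY proteins, which bring RNA polymerase IV to the loci it transcribes, and CHR34 is a less studied relative. None of these 4 passed in limma, adjusted or at an unadjusted p under 0.05, and their median log2 fold change was 0.01. The remodellers outside this group had a median of 0.68, and 3 of 4 rose, where 12.2% of all probe sets were called higher. Of the DRD1 group 3 of 4 lie in the dimmest 25% of probe sets, and of the others 0 of 4. That limit uses the mean of all 4 arrays, overexpressors included. In wild type alone mean log2 signal was 3.27 for CHR23, against 3.41 for chr31, 3.32 for CHR34 and 3.08 for CHR40. The grouping is textbook knowledge applied after the values were seen, and the difference between the groups was not tested.

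CHR42 had log2 signals of 3.93 and 3.55 in the overexpressors and 3.73 and 3.53 in wild type, so the groups overlapped (log2 fold change 0.11, SE 0.15, 95% interval -0.26 to 0.48). CHR34 had 3.11 and 3.59 in the overexpressors and 3.39 and 3.25 in wild type, with both wild-type arrays between the overexpressor arrays (0.03, SE 0.17, 95% interval -0.38 to 0.45 for the log2 fold change). The overexpressor arrays thus differed from each other by 0.49 for CHR34 and 0.38 for CHR42, more than the groups did.

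CHR40 was nearly level, with log2 signals of 3.06 and 3.05 in the overexpressors against 3.08 and 3.08 in wild type. Its log2 fold change was -0.02 (SE 0.09), and the 95% interval ran from 0.84-fold to 1.15-fold. chr31 had the lowest log2 fold change of all members, -0.19 (SE 0.10, limma adjusted p = 0.245, 95% interval -0.43 to 0.06), with 3.28 and 3.15 in the overexpressors and 3.38 and 3.43 in wild type. Its second, dimmer probe set gave a log2 fold change of -0.21 (SE 0.12, limma adjusted p = 0.259), with the groups apart in the same direction. On neither probe set did the change pass.

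The 3 genes chr31, CHR34 and CHR40, with the eraser HDA7, lie in the dimmest 25% of probe sets by mean signal, where 1.52% of 4006 nuclear probe sets were called. Without detection calls their height above background is likewise unknown, and a change of such genes may not be detectable on these arrays. Of the 6 members above that limit 3 were called, as were 29.9% of 9361 nuclear probe sets above it. The limit uses the mean of all 4 arrays. CHR23, among these 3, clears it through the overexpressors (mean log2 signal 4.26, against 3.27 in wild type).

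HDA7 and HDA15 are histone deacetylases of the RPD3/HDA1 family. HDA15 joins the phytochrome-interacting factor PIF3 in repressing chlorophyll and photosynthesis genes in the dark, and HDA7 is known from development of the female gametophyte. HDA15 had log2 signals of 6.75 and 6.55 in the overexpressors and 6.74 and 6.49 in wild type. The arrays of a group differed by 0.21 and 0.24, far more than the groups (log2 fold change 0.04, SE 0.13, limma adjusted p = 0.875). The 95% interval ran from 0.83-fold to 1.28-fold.

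HDA7 had log2 signals of 3.13 and 3.10 in the overexpressors and 3.05 and 2.96 in wild type. The groups did not overlap, but the gap was 0.05 and the change did not pass (log2 fold change 0.11, SE 0.10, limma adjusted p = 0.481, 95% interval -0.12 to 0.34). Groups that do not overlap are common on these arrays. They were found for 61.2% of all probe sets, 29.1% with the overexpressors higher, and for 5 members with the overexpressors higher and 2 lower.

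By class, 3 of 8 remodellers rose and 0 of 2 erasers did in limma (0 of 2 also at an unadjusted p under 0.05). With 12.2% of all probe sets called higher, 0 of 2 does not set the erasers apart. The median log2 fold change was 0.17 for the remodellers, with a range from -0.19 to 1.75, and 0.07 for the erasers. Both erasers lie within the range of the remodellers. Leaving out 1 array moved the remodellers' median to between 0.079 (without wild-type replicate 2) and 0.27 (without overexpressor replicate 1). The erasers' median ran from -0.0091, again with wild-type replicate 2 left out, to 0.16. With 2 erasers, the classes were described and the difference was not tested.

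**Figure D2:**
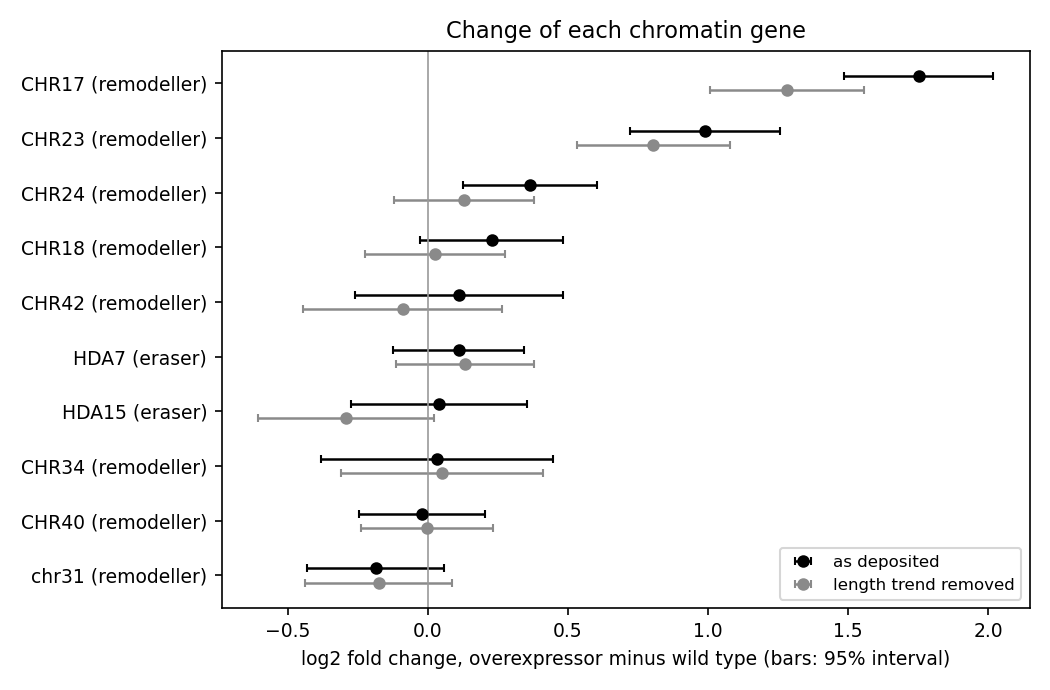
Log2 fold change (overexpressor minus wild type) of the 10 chromatin genes with 95% intervals, from the deposited values (black) and after removal of the relation to gene length (grey). CHR17 (1.75 and 1.28) and CHR23 (0.99 and 0.80) stay above 0 in both, and the grey interval of CHR24 includes 0.

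Gene length, which spans introns, stands beside each change because longer genes tended to be higher in the overexpressors across the array. Of nuclear probe sets, 1.23% were called higher among the shortest 25% by gene length (up to 1414 bp) and 23.3% among the longest 25% (over 3073 bp). Falls ran the other way, with 16.7% and 2.9%. The members are long genes: 9 of 10 lie in the longest class, and their median length is 4968 bp against 2122 bp over nuclear probe sets.

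Among the remodellers, CHR24 spans 6716 bp, CHR17 6480 bp, CHR18 5495 bp, CHR42 5453 bp, chr31 4986 bp, CHR23 4950 bp, CHR40 3895 bp and CHR34 3628 bp. The eraser HDA15 spans 4547 bp, and HDA7, at 1592 bp, is the 1 member outside the longest class. Across the 10 members log2 fold change and log2 length correlated with r = 0.37 and rho = 0.60, and across nuclear probe sets with r = 0.33 and rho = 0.36. These describe genes on the same 4 arrays, which are no independent replicates.

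Set against the longest class, 3 of 9 members rose where 23.3% of probe sets did, and the members' median log2 fold change of 0.11 there compares with 0.12. All 8 remodellers lie in that class at or below the median of mean signal, where 14.8% of 1813 probe sets were called higher. Within the longest class the log2 fold change of CHR17 was above that of 99.8% of probe sets, that of CHR23 above 96.5% and that of CHR24 above 73.1%. The change of chr31 was above that of 10.8%.

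**Figure D3:**
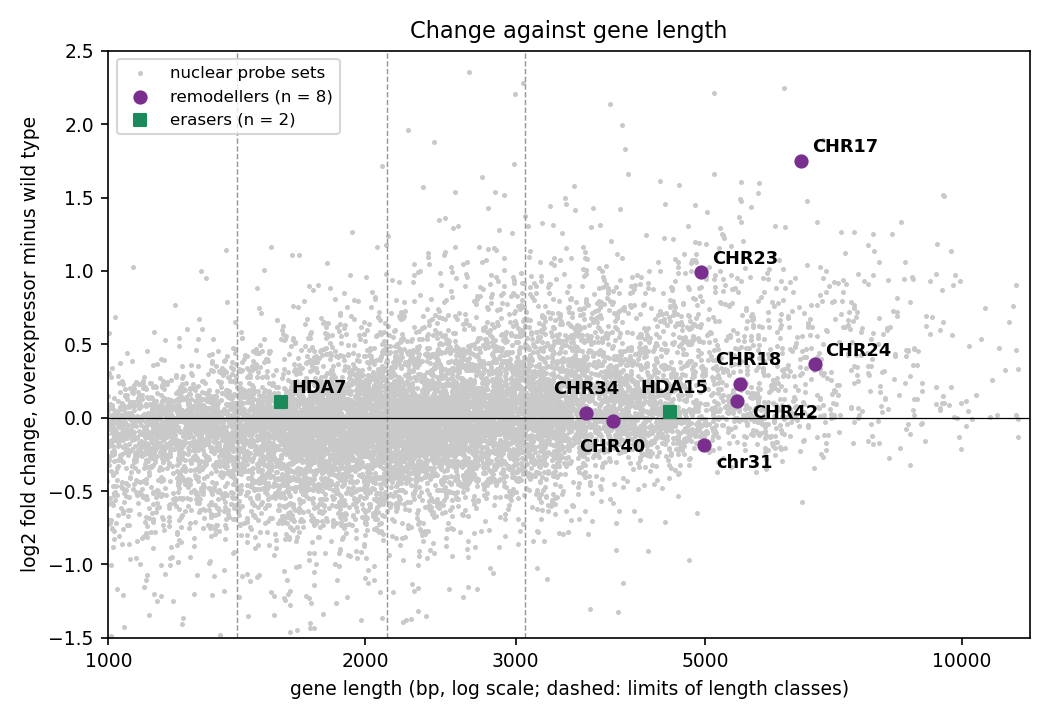
Log2 fold change (overexpressor minus wild type) against gene length on a log axis for nuclear probe sets (grey) and the 8 remodellers and 2 erasers (coloured), with dashed lines at the limits of the length classes and both axes limited to the region around the members. CHR17 and CHR23 sit near the upper edge of genes of their length, and the other members lie within the bulk.

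With the relation to length taken out of each array, 8.11% of nuclear probe sets were called higher and 7.61% lower, and 2 of 10 members passed. The rise measured 1.28 in log2 units for CHR17 (SE 0.12, limma adjusted p = 0.00114) and 0.80 for CHR23 (SE 0.12, limma adjusted p = 0.00561). CHR24 had 0.13 and CHR18 0.02 as log2 fold changes and did not pass. HDA15 changed sign, from 0.04 to -0.29 (SE 0.13, limma adjusted p = 0.198), and the median log2 fold change was 0.037 for the remodellers and -0.080 for the erasers. Removing the trend also takes out any biological relation to length.

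CHR17 and CHR23 were called with each of the 4 arrays left out in turn. Their log2 fold changes ran from 1.66 to 1.84 and from 0.89 to 1.09. For CHR42, CHR34 and HDA15 the sign depended on which array was left out, and none of them was called.

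**Figure D4:**
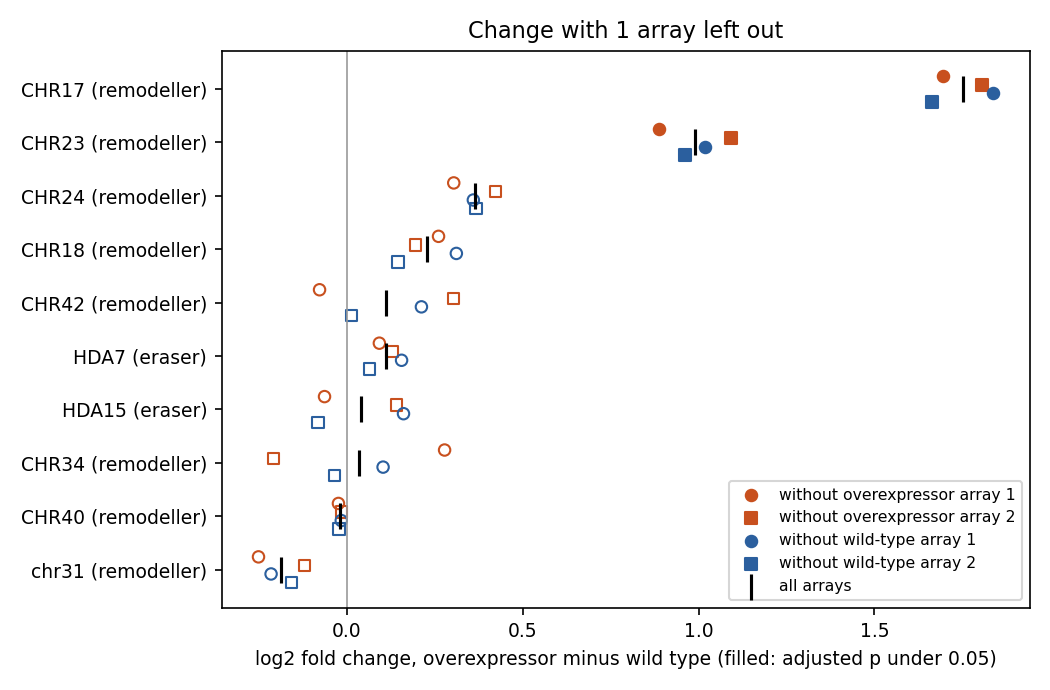
Log2 fold change (overexpressor minus wild type) of the 10 chromatin genes with 1 array left out at a time (orange, an overexpressor array; blue, a wild-type array; filled, limma adjusted p under 0.05) and with all arrays (black bars). CHR17 keeps 1.66 to 1.84 and CHR23 0.89 to 1.09, all filled, and CHR24 is open throughout.

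The neighbours of the risen members were also read. In the gene order of TAIR10.1, the 10 nearest measured genes around CHR17 had a median log2 fold change of 0.10, with 2 called higher and none lower, and a maximum of 0.70, below the 1.75 of CHR17. Around CHR23 the median was -0.18, with 1 called higher, 2 lower and a maximum of 0.69, below the 0.99 of CHR23. Around CHR24 the median was -0.07, with 2 called higher, 1 lower and a maximum of 0.75, above the 0.36 of CHR24. Over all probe sets 12.2% were called higher and 11.8% lower. The number of neighbours was chosen after the members' values were seen. These members were read because they had risen, so their place against their neighbours is no test.

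Other chromatin genes were taken from lists and from synonyms that match the prefixes. In all, 12 were measured, that is, had a probe set that names them alone. Of these, 3 rose and 1 fell, while 8 did not pass. The 4 called of 12 are near the 24% called over all probe sets, and the median log2 fold change was 0.16. By length, 3 of the 5 in the longest class rose, where 23.3% of nuclear probe sets were called higher and 2.9% lower. Of the other 7 none rose and 1 fell in limma.

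ATRX, a remodeller that deposits a replacement form of histone H3 and carries the synonym CHR20, had log2 signals of 5.19 and 5.49 in the overexpressors and 4.61 and 4.20 in wild type. Its rise measured 0.93 in log2 units (SE 0.17, limma adjusted p = 0.0123). The remaining genes with a matching synonym did not pass. They were ETL1, listed as CHR19, with a log2 fold change of 0.20 (SE 0.12), and AT3G45880, listed as JMJ32 and thus a candidate eraser, with 0.00071 (SE 0.11, 95% interval 0.83-fold to 1.21-fold).

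INO80, the ATPase of the remodelling complex of that name, had log2 signals of 6.22 and 6.02 in the overexpressors and 4.86 and 5.45 in wild type. The groups did not overlap, although the wild-type arrays differed by 0.59, and the rise measured 0.96 in log2 units (SE 0.20, limma adjusted p = 0.0182). It did not pass without overexpressor replicate 1 (limma adjusted p = 0.0519). It was 1 of 4 measured of 17 remodelling partners, and the others, among them the SNF5 subunit BSH (log2 fold change -0.39, SE 0.12, limma adjusted p = 0.0664), did not pass.

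DME encodes a DNA glycosylase that removes methylated cytosine. Of 30 genes in the list for DNA methylation it was the 1 with probe sets that name it alone. Its brightest probe set had log2 signals of 4.95 and 4.96 in the overexpressors and 4.30 and 4.42 in wild type, and its rise measured 0.59 in log2 units (SE 0.10, limma adjusted p = 0.00898). Its other 2 probe sets gave log2 fold changes of 0.07 (SE 0.10) and 0.05 (SE 0.12), did not pass and were dimmer, so the probe sets of this gene disagree.

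SGA2, also named ASF1A, a chaperone that hands histones to assembling nucleosomes, fell by 0.44 in log2 units (SE 0.12, limma adjusted p = 0.0479), from 7.26 and 7.34 in wild type to 6.72 and 7.001. Its call did not pass without overexpressor replicate 1 (limma adjusted p = 0.209), wild-type replicate 1 (0.114) or wild-type replicate 2 (0.156), nor after quantile normalization (0.0549), with nuclear probe sets only (0.0550) or with the replicate block (0.0655). ASF1B, the other measured gene of 13 chaperones, did not pass. ULT1, a trithorax-group factor and the 1 measured gene of 23 in the Polycomb list, had a log2 fold change of -0.40 (SE 0.12, limma adjusted p = 0.0619). It passed after quantile normalization (0.0429), median centring (0.0437), removal of dim probe sets (0.0496 and 0.0244) and with an intensity trend (0.0460), but not with any 1 array left out (0.0708 to 0.246). The 1 measured gene of 24 in the list for other acetylation and demethylation, LDL2, did not pass. With the length trend removed, ATRX (log2 fold change 0.32), INO80 (0.39), DME (0.32) and SGA2 (-0.24) did not pass, and ULT1 (-0.48, limma adjusted p = 0.0409) did.

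Of 21 markers of dividing cells 1 had a probe set that names it alone, PRL, which encodes the replication helicase subunit MCM7. Its log2 signal was 6.96 and 6.60 in the overexpressors and 5.96 and 6.02 in wild type, a rise of 0.79 (SE 0.14, limma adjusted p = 0.0105) that did not pass with the length trend removed (log2 fold change 0.43, limma adjusted p = 0.0724). Its part in the rises of the remodellers was not tested.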

How the data were processed

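RNA from 4 shoot samples was hybridised to Affymetrix arrays after 3′ in vitro transcription labelling, per the labels' protocols. For each array the deposited table gives linear intensity values, 1 per probe set. They were made with RMA, per the submitters' processing notes. Its version is not given in the sources used here, nor is how values came back to linear scale. The log2 was taken without further normalization. The table has 22810 probe sets, and 64 controls were left out of the tests. The platform annotation names 1 gene for 13513 probe sets, of which 13367 are nuclear with a length. Current symbols, gene lengths and gene order came from the RefSeq table of TAIR10.1, where the Entrez identifiers of 13436 probe sets with 1 gene were found.

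The test was two-sided limma (version 3.58.1, R 4.3.3; lmFit, then eBayes) with no term but group. P-values were adjusted by Benjamini-Hochberg over 22746 probe sets at a threshold of 0.05. There were 2 residual and 4.24 prior degrees of freedom. An exact permutation test of 2 against 2 cannot go below p = 0.333. To remove the length trend, a lowess curve of span 0.5 against log2 length was subtracted in every array, separately in 4 bins of mean signal. Nuclear probe sets were then tested alone. The fit and this step were tested on simulated data. Precision is limited by the number of arrays.

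The members, lists and tests were chosen with earlier results of these data known. Every member may be named; list genes were named where called, and others in counts of 5 or fewer or with a call under another setting were named after their values were seen. Settings tried were median centring, quantile normalization, leaving out dim probe sets or any 1 array, robust eBayes with an intensity trend, ordinary statistics, stricter thresholds, nuclear probe sets only, length removal, a block for replicate number, the dimmer probe set of a gene and other membership rules. Same-numbered arrays did not deviate together (correlation of deviations -0.041). Promoter and protein sequences are not analysed here.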

Additional observations from a re-analysis of the deposited data

How the results depend on the processing

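The count of 3 risen members, with 0 fallen, moved to 0 when probe sets dimmer than the median were left out, since that setting removes 9 of the 10 genes, and to 0 with ordinary statistics, which share no variance between probe sets; 3 members then had an unadjusted p under 0.05, and 5 probe sets of 22746 passed. CHR17 and CHR23 passed under each of the 11 other settings that kept them. These settings use the same arrays, and removal of the dimmest 25% of probe sets keeps CHR23 only through its overexpressor arrays. CHR24 passed under 2 of 11, quantile normalization and removal of the dimmest 25% of probe sets, and its adjusted p reached 0.0556 with median centring, 0.0516 with nuclear probe sets only, 0.103 with an intensity trend, 0.0813 with the replicate number as a block and 0.477 with the length trend removed. The replicate numbers only number the arrays; the block left 2 members called and also ended the calls of INO80, ATRX, SGA2, SBPASE and RCA. Leaving out each array left 2 members called each time.

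The remodellers' median log2 fold change was 0.17. Without the dimmest 25% of probe sets, which removes 3 remodellers and keeps CHR23 through its overexpressor arrays, it moved to 0.36. With the length trend removed it was 0.037. With 1 array left out it ran from 0.079 to 0.27, lowest without wild-type replicate 2. The erasers' median of 0.07 changed sign to -0.080 with the length trend removed and ran from -0.0091, without wild-type replicate 2, to 0.16 with 1 array left out; the cause was not tested. Signs changed in genes with no call. CHR40 had 0.011 after quantile normalization. With the length trend removed CHR42 had -0.090, HDA15 -0.29, the dimmer DME probe sets -0.21 and -0.23 and AT3G45880 -0.043, which also had -0.0066 after quantile normalization and -0.033 with median centring. With 1 array left out, log2 fold changes ran from -0.078 to 0.30 for CHR42, -0.21 to 0.28 for CHR34 and -0.083 to 0.16 for HDA15. They ran from -0.098 to 0.099 for AT3G45880 and from -0.081 to 0.18 for the second brightest DME probe set. In all, 90 values of members kept direction and side of the threshold, 9 lost a call and 8 changed sign. The lone array of a group is taken to vary as the arrays of the other group do. Leaving out chr31, whose symbol is in lower case, was chosen after seeing the data and left 3 members called.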

Other observations

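Histones themselves were searched after the values above were seen, by synonyms that name a histone, and 5 genes were measured. HIS1-3, a linker histone that is known to accumulate in drought and low light, was the 1 that passed. Of all probe sets 24% were called in either direction and 11.8% lower, so 1 of 5 is near that share. Its log2 signal was 7.52 and 7.43 in the overexpressors and 8.48 and 8.62 in wild type, and it fell by 1.07 (SE 0.10, limma adjusted p = 0.00198). The groups did not overlap, and the fall stayed past the threshold with the length trend removed (log2 fold change -0.77, limma adjusted p = 0.00475). The log2 fold change was 0.19 (SE 0.12) for HTB2, a core histone H2B gene, and -0.26 (SE 0.09) for HTR12, the histone H3 of centromeres, and neither passed. On the deposited values the groups of HTB2 overlapped and those of HTR12 did not. With the length trend removed both genes passed, HTB2 at 0.54 (limma adjusted p = 0.0214) and HTR12 at -0.37 (limma adjusted p = 0.0457). Under that setting 8.11% of nuclear probe sets were called higher and 7.61% lower. HTB2 spans 847 bp and HTR12 2991 bp. HON4 and MGH3 did not pass.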
